A study of Mus musculus with 21 samples.

Results

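At embryonic day 16.5 (E16.5), male germ cells that lack TEX15 carried more counts of the ERVK family of endogenous retroviruses than heterozygous cells (log2 fold change 1.15 ± 0.20, SE, n = 3 and 3), while Tex15 was the only gene that passed the test. The comparison uses 6 of the series' 21 libraries: 3 of genotype Tex15HT (heterozygous, HT) and 3 of genotype Tex15KO (homozygous knockout, KO). Both genotypes came from crosses between heterozygous parents on a mixed strain background, so the controls also carry 1 mutant allele, and no wild-type library of this age was analysed here. All cells were sorted from fetal testes by an Oct4-GFP reporter, which both groups carry. Total RNA was extracted with a PicoPure kit and amplified with NuGEN Ovation kits. The design text calls the replicates biological triplicates. The sources used here do not say how many embryos stand behind a library, so the p-values measure only the spread between these libraries.

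TEX15 is a large germ cell protein that works with the nuclear arm of the piRNA pathway. In fetal male germ cells, short piRNAs bound by PIWIL4 (MIWI2) find nascent transposon transcripts, and DNA methylation is then laid down on the promoters of young L1 elements and endogenous retroviruses. The genome of these cells is largely unmethylated when they stop dividing, and it is methylated again between then and birth, so E16.5 lies early in that period. Long interspersed L1 elements copy themselves through RNA. Endogenous retroviruses are flanked by long terminal repeats, and the mouse ERVK class holds the IAP, ETn and MMERVK10C elements.

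The libraries held between about 9375220 and 11884100 gene counts over 24495 gene rows, and 41.9% to 51.1% of all counts in the read tables fell on 1217 repeat names. Gene levels are given as CPM, gene counts divided by the TMM-scaled library size and brought to a common total, and 3 counts correspond to 0.258 to 0.297 CPM. The libraries did not group by genotype. The first principal component of log2 CPM held 78.2% of the variance, with HT replicate 1 at one end (-127) and KO replicate 3 (74.8) and HT replicate 3 (55.7) at the other. HT replicate 2 (-5.82) and KO replicates 1 and 2 (-0.16 and 2.81) lay close together in the middle. HT replicate 1 stood above all 5 other libraries in 38.0% of the 16185 genes tested and below them in 39.4%, and 5815 genes had no count in it against 3410 to 4421 in the others. KO replicate 3 came next, above all others in 26.9% and below them in 26.6%. Each remaining library was highest in 6.12% to 15.5% and lowest in 6.05% to 13.1%. The main results below are given with and without HT replicate 1, the library farthest apart. The germ cell markers were present in all 6 libraries, with Ddx4 at 562 to 1091 CPM, Dazl at 424 to 1195 CPM and Tdrd1 at 1070 to 1714 CPM.

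Tex15 itself checked the labels. Its level was 884, 992 and 1080 CPM in the HT libraries and 3.54, 2.93 and 3.86 CPM in the KO libraries. The groups lay far apart in every library, and HT replicate 1 was no exception. This is a log2 fold change of -8.16 ± 0.20 (SE, n = 3 and 3; adjusted p = 2.26e-05, edgeR quasi-likelihood test), and of -8.22 without HT replicate 1. Tex15 was the only call among 16185 genes, 0.00618% of those tested, with 190 genes at an unadjusted p under 0.05. It was likewise the only call in each of the 6 fits that left out 1 library (0.00591% called without HT replicate 1) and in a limma-voom fit. DESeq2 called 6 genes, and limma-voom with a weight for each library called 10. The gene weights there were 0.143, 5.29 and 0.489 in HT and 2.34, 2.93 and 0.396 in KO. Most of the HT weight thus lay on HT replicate 2.

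Promoter sequences are shown for 4 genes that lay above every HT library in every KO library at E16.5 and that were also called higher in KO at E18.5 in other libraries. They are the 250 bases before the annotated start in RefSeq (GRCm38.p6), written 5′ to 3′ on the gene's strand, with each CG dinucleotide, the site of DNA methylation, in capitals. The deposited counts were made on mm9, so no count is tied to these coordinates.
Gpr179, chr11:97352357-97352606, minus strand: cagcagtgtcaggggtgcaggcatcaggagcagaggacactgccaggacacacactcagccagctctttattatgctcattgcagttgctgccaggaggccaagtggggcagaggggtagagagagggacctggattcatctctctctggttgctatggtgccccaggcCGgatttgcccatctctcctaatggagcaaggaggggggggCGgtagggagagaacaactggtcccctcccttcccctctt
Casp1, chr9:5298267-5298516, plus strand: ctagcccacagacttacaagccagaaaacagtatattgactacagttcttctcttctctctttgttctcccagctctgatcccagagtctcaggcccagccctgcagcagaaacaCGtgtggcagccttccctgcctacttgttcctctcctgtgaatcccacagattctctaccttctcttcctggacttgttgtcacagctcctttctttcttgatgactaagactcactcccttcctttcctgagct
Prss12, chr3:123446663-123446912, plus strand: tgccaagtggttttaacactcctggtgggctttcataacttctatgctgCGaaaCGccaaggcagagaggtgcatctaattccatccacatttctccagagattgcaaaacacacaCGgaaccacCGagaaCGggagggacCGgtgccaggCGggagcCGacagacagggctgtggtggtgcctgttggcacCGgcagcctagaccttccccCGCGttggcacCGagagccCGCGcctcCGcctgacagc
Pitpnc1, chr11:107470721-107470970, minus strand: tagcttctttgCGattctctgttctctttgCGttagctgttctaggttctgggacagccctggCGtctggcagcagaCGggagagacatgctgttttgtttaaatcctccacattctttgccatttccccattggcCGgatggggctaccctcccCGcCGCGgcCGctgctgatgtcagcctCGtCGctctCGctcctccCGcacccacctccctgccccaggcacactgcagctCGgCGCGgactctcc
The windows differ in CG content. Gpr179 held 2 CG and Casp1 held 1, and 81.2% and 92.1% of 32851 RefSeq promoter windows of this length held at least as many. Prss12 held 15 and Pitpnc1 held 16, which 27.3% and 25.4% of the windows reached. The median over all windows was 6. Of the 12 higher genes of smallest p, 6 had a promoter entry.

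Among repeat families, 4 of 52 tested families rose in KO and none fell (7.69% called). The family values count alignments, not reads. Their totals of 259342000 to 479309000 a library exceed the 18291400 to 21621000 counts of the read tables, so 1 read may count repeatedly. ERVK, the class with the IAP elements, gave 1357, 1224 and 1076 counts per 1000 gene counts in HT and 2374, 2510 and 3219 in KO. The 2 groups were well apart, and the HT libraries varied little (1219 ± 141 against 2701 ± 454, SD, n = 3 and 3). The difference of 1.15 ± 0.20 (SE, log2 scale) had an adjusted p of 0.00176 in edgeR, and without HT replicate 1 it was 1.24. ERV1, the class of the murine leukaemia virus type elements, gave 34.4, 51.7 and 50.2 in HT and 68, 70.3 and 102.7 in KO. Its lowest value was in HT replicate 1, and the difference went from 0.82 ± 0.18 (SE, log2 scale; adjusted p = 0.00629 in edgeR) to 0.67 without that library.

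The other 2 families that rose carry the labels NA and RNA in the deposited table. The NA row gave 39.2, 43 and 46.8 in HT and 63.8, 56.9 and 82.2 in KO (difference 0.65 ± 0.14, SE, log2 scale; adjusted p = 0.00629 in edgeR; 0.60 without HT replicate 1). The RNA row gave 0.197, 0.333 and 0.305 in HT and 0.367, 0.503 and 0.508 in KO. Its groups were separated by the narrow gap between HT replicate 2 and KO replicate 1, and its difference went from 0.72 ± 0.17 (SE, log2 scale; adjusted p = 0.00973 in edgeR) to 0.54 when HT replicate 1 was left out. The same 4 families were called without HT replicate 1. In that fit the estimated prior degrees of freedom were infinite, so each family took the spread of families of like abundance. Without KO replicate 2, ERV1 (adjusted p = 0.0789) and RNA (adjusted p = 0.292) missed the threshold in edgeR.

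**Figure D1:**
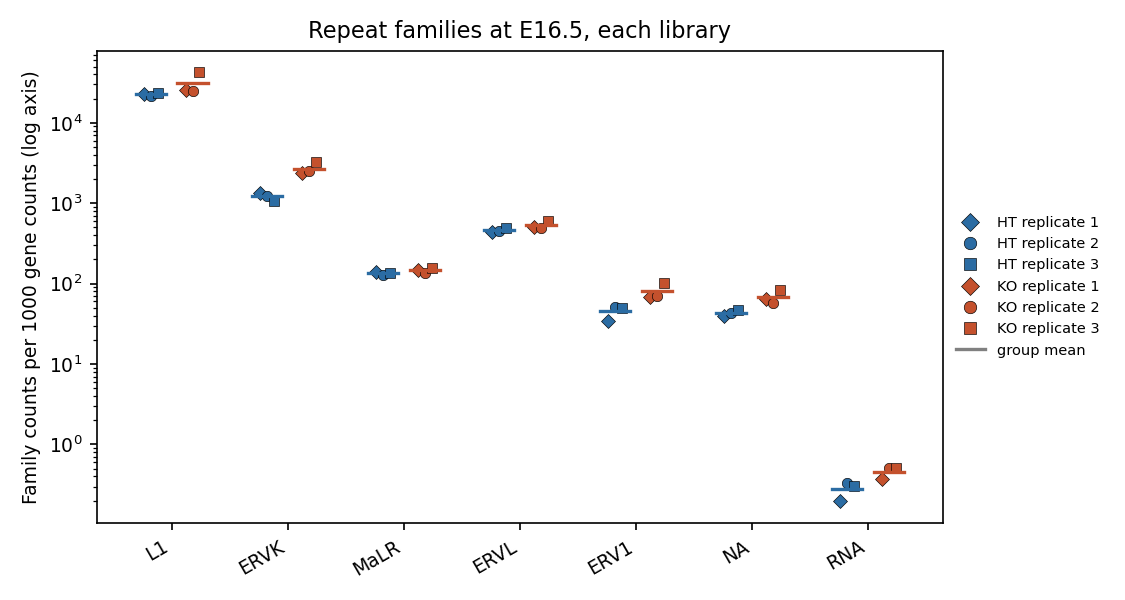
Counts of 7 repeat families per 1000 gene counts (log axis) in each E16.5 library, with HT in blue, KO in orange, 1 marker shape per replicate and a bar at each group mean. ERVK in KO (2374 to 3219) lies above HT (1076 to 1357), and KO replicate 3 is the highest library for L1, whose direction flips to -0.03 on the log2 scale when family totals are the library sizes.

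The L1 family made up 86.6% to 90.4% of all family counts, a share of alignments and not of reads. It gave 23042, 21643 and 23183 counts per 1000 gene counts in HT and 25719, 25075 and 42598 in KO. KO replicates 1 and 2 lay just above HT, and only KO replicate 3 was far above. The difference of 0.46 ± 0.29 (SE, log2 scale) had an adjusted p of 0.596 in edgeR, it was 0.48 without HT replicate 1, and the fits that left out 1 library each ranged from 0.18 to 0.59. Because L1 fills most of the family table, scaling by family totals moved the median of all 52 families from 0.12 to -0.32 on the log2 scale. On that scaling ERVK was the 1 family called (0.69), L1 was at -0.03, ERVL at -0.22 and MaLR at -0.30. The 3 other families lost their calls there, with ERV1 at 0.34 (adjusted p = 0.344), NA at 0.19 (adjusted p = 0.461) and RNA at 0.28 (adjusted p = 0.373, all edgeR).

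Over all families, 9 of 52 (17.3%) had all KO libraries above all HT libraries and none had the reverse. These were ERVK, ERV1, NA, RNA, L1, ERVL, SINE, TcMar and Tc2. Without HT replicate 1 the count was 24 of 52 (46.2%), again with none the other way. Among those added were the old LINE family L2, with 5.17 in HT replicate 1 against 5.08 to 5.54 in KO, and the short interspersed family B4, with 56.9 in HT replicate 1 against 49.9 to 54.7 in KO. Scaled by family totals, both were lower in KO (-0.32 and -0.40 on the log2 scale). The short interspersed Alu and B2 families were highest in HT replicate 1, at 104 for each against 73.2 to 86.1 and 82.2 to 93.4 in the other libraries. Their log2 fold changes were -0.12 and -0.06 with all libraries and 0.05 for both without HT replicate 1, none of them called by edgeR.

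Individual repeat names give a finer view. No name passed in edgeR (0 of 1090 tested, 0% called, 67 at an unadjusted p under 0.05), and limma-voom also called none, while DESeq2 and limma-voom with library weights each called 2. Those 2 were IAPEz-int, the internal part of the most active IAP group, and IAPLTR1_Mm, its flanking repeat. IAPEz-int gave 595, 646 and 649 CPM in HT and 1151, 1289 and 1822 CPM in KO. HT replicate 1 did not stand apart for this element, the groups did not overlap, and the difference of 1.17 ± 0.17 (SE, log2 scale; adjusted p = 0.0857 in edgeR) was 1.14 without that library. IAPLTR1_Mm gave 66.3, 86.4 and 83.3 CPM in HT and 162, 179 and 256 CPM in KO, a difference of 1.34 ± 0.19 (SE, log2 scale; adjusted p = 0.0857 in edgeR) and of 1.24 without HT replicate 1. Across the alternatives the adjusted p ran from 5.15e-07 to 0.529 for IAPEz-int and from 2.74e-07 to 0.529 for IAPLTR1_Mm. Both were called by edgeR when KO replicate 1 or KO replicate 3 was left out.

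Over all names, 903 of 1090 log2 fold changes were above 0, with a median of 0.14 (0.13 without HT replicate 1). This rise depends on the scaling by gene counts. With repeat totals as library sizes the median was 0.04, with 63.6% of names above 0 beside 82.8% in the main fit. All KO libraries exceeded all HT libraries in 123 names (11.3%), and the reverse held in 14 (1.28%). Without HT replicate 1 these counts were 258 (23.7%) and 29 (2.66%). The remaining IAP elements were less separated than IAPEz-int. All 6 internal IAP names had log2 fold changes above 0 (median 0.69), and 3 had no overlap between groups, but the median without HT replicate 1 was 0.41. IAP-d-int was lowest in that library, with 321 CPM in HT replicate 1, 549 and 789 CPM in the other HT libraries and 758, 783 and 1070 CPM in KO. The 7 IAP long terminal repeats had a median of 0.48, and 0.31 without HT replicate 1.

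The values of other retroviral elements moved with that library, and with KO replicate 3 as given below. MMERVK10C-int, an ERVK element, gave 523, 1221 and 1536 CPM in HT and 1507, 1553 and 2785 CPM in KO, so that KO replicate 1 lay below HT replicate 3. Its log2 fold change of 0.83 (SE 0.40) became 0.51. The 9 names of the MMERVK10C and RLTR10 group had a median of 0.63, and 0.28 without HT replicate 1. The 4 ETn and MusD names went from 0.53 to 0.28, and the 30 tested names of the MLV type and VL30 group from 0.34 to 0.15. RLTR4_Mm, a murine leukaemia virus repeat of that group, was even across HT. It gave 12.6, 12.5 and 11.6 CPM in HT and 18, 17.1 and 23.9 CPM in KO (log2 fold change 0.68, and 0.72 without HT replicate 1).

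Young L1 subfamilies, which still move in the mouse genome, overlapped between the groups. The 6 L1Md names had a median log2 fold change of 0.54, or 0.38 without HT replicate 1. In no name did all KO libraries exceed all HT libraries, beside 11.3% of all names. Over only 6 names, such a count cannot be told apart from that share. L1Md_F2 gave 5359, 6459 and 8621 CPM in HT and 8342, 8245 and 14201 CPM in KO. L1Md_T gave 17540, 16742 and 19923 CPM in HT and 12884, 22529 and 20020 CPM in KO, so its groups overlapped. L1Md_A, the subfamily best known from piRNA pathway mutants, gave 2287, 2416 and 2828 CPM in HT and 2597, 2581 and 4053 CPM in KO (log2 fold change 0.29, SE 0.19, and 0.24 without HT replicate 1).

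Older rodent L1 names, by contrast, differed little but evenly. All 24 had log2 fold changes between 0.18 and 0.51 (median 0.30), and 14 of the 24 were free of overlap and higher in KO, a count that was 14 again without HT replicate 1, beside 11.3% and 23.7% of all names. L1VL4 gave 2036, 1856 and 2136 CPM in HT and 2439, 2279 and 2767 CPM in KO. Ancient L1 names (74 tested) had a median of 0.12, with 20 free of overlap, beside 0.14 and 11.3% for all names. Without HT replicate 1 the median was 0.16, with 49 free of overlap, beside 0.13 and 23.7% for all names. With repeat totals as library sizes the medians were 0.03 for ancient and 0.21 for older rodent L1. The major satellite GSAT_MM varied widely between replicates, from 3.85 and 23.8 to 2582 CPM in HT and from 14.2 and 15.3 to 417 CPM in KO, with the high values in replicate 3 of both groups.

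KO replicate 3 also bore on the repeat values. With it alone left out, the median log2 fold change was 0.19 for young L1 and 0.41 for internal IAP names. The medians were then 0.17 for ETn and MusD, 0.25 for MMERVK10C and RLTR10 and 0.13 for MLV type and VL30. A fit without KO replicate 3 and HT replicate 1 was an alternative added after the data were seen. Its median log2 fold change was 0.02 for young L1, 0.01 for ETn and MusD, -0.03 for MMERVK10C and RLTR10 and 0.13 for internal IAP names. The older rodent L1 median was then 0.13, with all 24 names above 0. IAPEz-int (0.91, edgeR adjusted p = 0.00145) and IAPLTR1_Mm (1.01, edgeR adjusted p = 0.000539) were called in that fit, as were the same 4 families. The 2 choices differ in balance on the first principal component: without HT replicate 1 the group means were 25 (HT) and 25.8 (KO), and without both libraries they were 25 and 1.32.

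**Figure D2:**
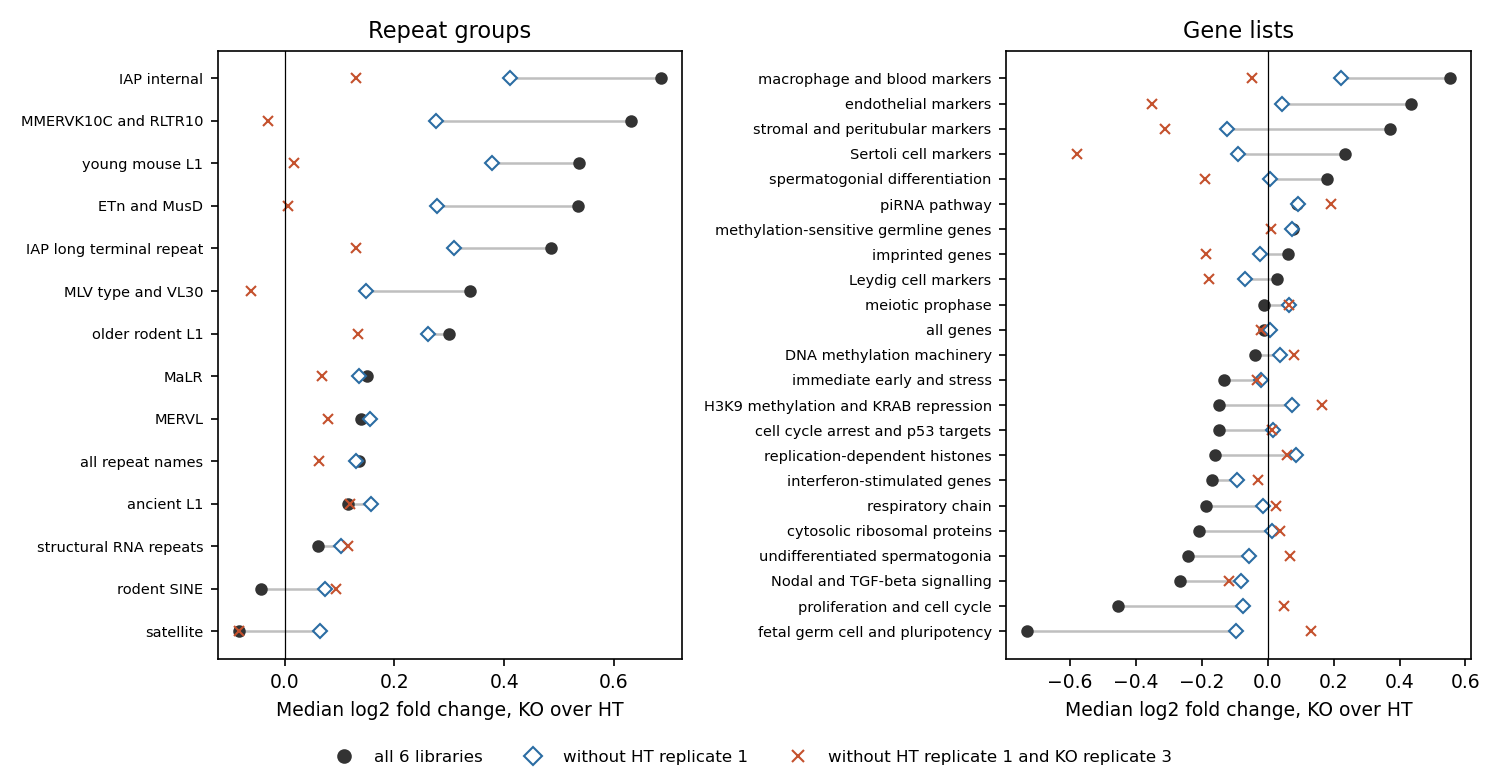
Median log2 fold change of KO over HT for each repeat group (left) and gene list (right), with all 6 libraries (filled circles), without HT replicate 1 (open diamonds) and without HT replicate 1 and KO replicate 3 (crosses). The fetal germ cell list moves from -0.73 to -0.10 and then 0.13, whereas the median of all repeat names moves from 0.14 to 0.13 and then 0.06.

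As a share of all counts in the read tables, repeat names took 41.9%, 45.6% and 48.0% in HT and 45.9%, 46.3% and 51.1% in KO. The groups overlapped, with a difference of 2.59 percentage points (exact permutation test, two-sided, p = 0.4, n = 3 and 3, smallest possible p 0.1). Without HT replicate 1 the difference was 0.949 percentage points (exact permutation test, p = 0.8, n = 2 and 3).

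Among genes other than Tex15, the smallest p-values belonged to genes that were higher in KO. Slc40a1, the iron exporter ferroportin, gave 17.9, 28.4 and 23.9 CPM in HT and 74.6, 99 and 105 CPM in KO. Its groups were far apart, with a difference of 1.99 ± 0.23 (SE, log2 scale; adjusted p = 0.472 in edgeR) and of 1.84 without HT replicate 1. DESeq2 and limma-voom with library weights called it, and its adjusted p over all alternatives ran from 5.69e-10 to 1.00. Gucy1a3, a subunit of the nitric oxide receptor guanylate cyclase, gave 2.89, 7.53 and 6.72 CPM in HT and 26.2, 30.7 and 27.4 CPM in KO (difference 2.30 ± 0.37, SE, log2 scale; adjusted p = 0.976 in edgeR). The KO libraries were alike and HT replicate 1 was the lowest, so the log2 fold change without it was 1.99.

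Cyp4a12b, a fatty acid hydroxylase of the cytochrome P450 family, gave 7.5, 13.1 and 8.30 CPM in HT and 27.6, 33.0 and 30.5 CPM in KO (log2 fold change 1.65, and 1.51 without HT replicate 1). Gpr179, an orphan receptor of retinal bipolar cells, gave 31.8, 22.5 and 22.4 CPM in HT and 47.4, 60.7 and 73.7 CPM in KO. Unlike most of the leading genes, Gpr179 was highest among the HT libraries in replicate 1, and its log2 fold change was 1.24 with that library and 1.44 without it. Pitpnc1, a phosphatidylinositol transfer protein, gave 37.6, 64.7 and 43.4 CPM in HT and 81.7, 87.4 and 100 CPM in KO (log2 fold change 0.88, and 0.74 without HT replicate 1). Spinkl, a Kazal-type protease inhibitor, was at 0.18 to 0.39 CPM in HT, which is 2 to 4 counts a library, and at 1.99 to 4.75 CPM in KO. Cyp4a12b, Vmn2r-ps11 and other members of large gene families have near-identical copies, and the sources used here do not say how reads shared between copies were counted.

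Further named higher genes, with log2 fold changes from all libraries and then without HT replicate 1, were Prss12 (neurotrypsin, 1.83 and 1.54), Casp1 (the inflammatory caspase, 2.24 and 1.82), Gabra4 (a GABA receptor subunit, 1.33 and 1.12), Smarca1 (a chromatin remodeller, 0.74 and 0.59) and the vomeronasal receptor pseudogene Vmn2r-ps11 (2.43 and 2.02). None passed edgeR's test, and the absence of overlap between groups was part of the rule that chose them. Casp1 was lowest in HT replicate 1, with 1.06 CPM there, 3.90 and 5.34 CPM in the other HT libraries and 11.1, 11.8 and 25.8 CPM in KO. Over all 16185 genes, 532 (3.29%) had all KO libraries above all HT libraries and 495 (3.06%) the reverse, and without HT replicate 1 the counts were 915 (5.65%) and 958 (5.92%).

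The named lower genes differed in how much HT replicate 1 added to them. Saraf, a regulator of store-operated calcium entry, gave 21.0, 26.1 and 29.4 CPM in HT and 9.94, 10.9 and 14.4 CPM in KO, and Ung, the uracil-DNA glycosylase, gave 158, 185 and 137 CPM in HT and 109, 103 and 101 CPM in KO. Their log2 fold changes of -1.12 and -0.61 were -1.23 and -0.61 without HT replicate 1, with an edgeR adjusted p of 0.976 for both. Lefty1, an antagonist of Nodal, gave 22.4, 3.54 and 1.28 CPM in HT and 1.12, 0.52 and 0.89 CPM in KO, and L1td1, a pluripotency gene derived from an L1 element, gave 41.6, 7.53 and 5.24 CPM in HT and 3.80, 3.53 and 3.47 CPM in KO. For both, 1 library carried most of the HT mean, and the log2 fold changes of -3.41 and -2.33 became -1.50 and -0.81. Rhob, Pecam1, Sdf2l1, Pdlim3 and Fam171a1 were also highest in HT replicate 1, while Hk2, Dnajc17 and Jph4 were even across HT.

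**Figure D3:**
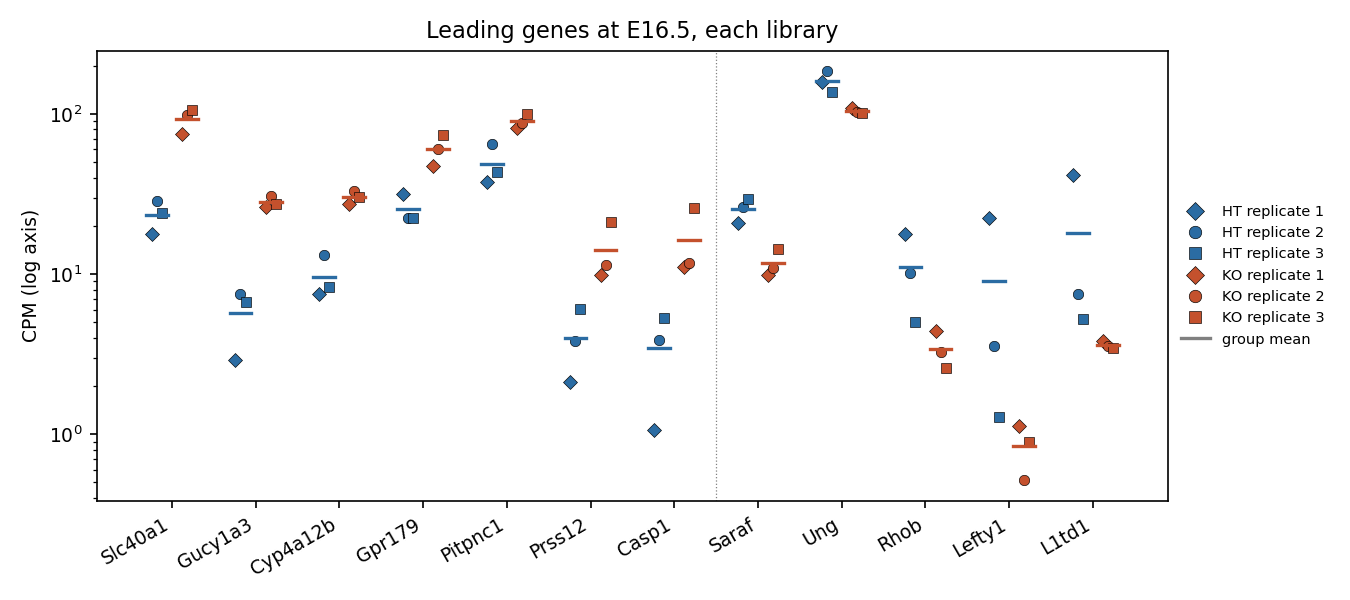
CPM (log axis) of 7 genes higher in KO (left of the dotted line) and 5 lower in KO (right) in each E16.5 library, marked as in the plot of families, with a bar at each group mean. Slc40a1 lies at 17.9 to 28.4 CPM in HT and 74.6 to 105 CPM in KO, and the HT mean of Lefty1 and L1td1 rests on replicate 1 (22.4 and 41.6 CPM).

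Saraf lies near Tex15 on chromosome 8. In the order of the GENCODE annotation it is the 9th tested gene after Tex15, and the position was looked up after its value was seen. Of the 10 tested genes on either side, Wrn, Purg and Saraf had all KO libraries below all HT libraries, and B930018H19Rik had them above, so that 3 of 20 were below and 1 above, beside 3.06% and 3.29% of all genes. Saraf, which prompted the look, is 1 of those 3, so the count is no test against that share. Without HT replicate 1 the counts were 4 below (Gsr added) and 3 above (Ubxn8 and Leprotl1 added), beside 5.92% and 5.65%. Wrn gave 56.4, 51.8 and 52.6 CPM in HT and 45.8, 45.2 and 46.0 CPM in KO, and Purg gave 19, 22.9 and 20.7 CPM in HT and 16.6, 17.9 and 18.2 CPM in KO. Adam39, 25 tested genes from Tex15, lies outside these 20, and the other genes at that distance are not described. It had at most 1 count in each HT library and 1.64, 2.15 and 1.09 CPM in KO.

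Of the 8 higher genes of smallest p without HT replicate 1, 7 were also among the 12 chosen with all libraries: Gucy1a3, Slc40a1, Gpr179, Cyp4a12b, Spinkl, Vmn2r-ps11 and Casp1. The other was Pnpt1, a mitochondrial RNA exonuclease, at 99.2 and 81.9 CPM in HT replicates 2 and 3 and 138, 149 and 131 CPM in KO, with 142 CPM in HT replicate 1. Of the 8 lower genes, 5 were not among the 12 named with all libraries: Oxa1l, Hoxb1, Rab2b, H2-K1 and Lexm. In Hoxb1, a homeobox gene, HT replicate 1 (0.19 CPM) lay below KO (1.30, 1.38 and 1.49 CPM) and the other HT libraries (3.81 and 3.26 CPM) above. Tex15 remained the only call, with 175 genes at an unadjusted p under 0.05.

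Several of the transcripts that set HT replicate 1 apart are known developmental genes. Highest in it, relative to HT replicates 2 and 3, were Otx2 (39.2 CPM against 3.01 and 2.47) and Lhx1 (47.7 against 9.39 and 1.88), homeobox genes of early embryos, and Lefty2 (53 against 9.75 and 4.05), a Nodal target. Ldhb (132 against 24.9 and 10.5), Tdh, Tktl2, Dusp4 and Ap3b2 completed the 8. Lowest in it were Tbx19 (0 CPM against 10.6 and 31.7) and Dntt (0.19 against 16.0 and 44.2), with Serpina3c, Dmkn, Lcn2, Alpk2, Slc51a and Faim2. In total 1332 tested genes (8.23%) were at least 2-fold above the mean of HT replicates 2 and 3 in HT replicate 1 and 3816 (23.6%) at least 2-fold below, on the log2 scale with a prior count of 2. In KO, Otx2 was at 2.08 to 4.41 CPM and Tbx19 at 12.6 to 37.3 CPM. Tktl2 was at 13.0 CPM in KO replicate 1, between HT replicate 1 (26.5 CPM) and the other HT libraries (4.34 and 2.37 CPM).

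Genes higher at E18.5 were displaced in the same library, and genes lower at E18.5 less so. In the KO libraries alone, 6602 of 17569 genes differed between E16.5 and E18.5 (37.6% called by edgeR). Of the 200 of smallest p that were lower at E18.5, HT replicate 1 lay above both other HT libraries in 136 (68%), and of the 200 that were higher at E18.5 it lay below both in 165 (82.5%). Over all tested genes these shares were 43.2% and 45.1%. The median log2 CPM of the 200 genes higher at E18.5 was 0.66 in HT replicate 1, 1.83 and 2.77 in HT replicates 2 and 3, and 1.70, 1.89 and 2.63 in KO replicates 1 to 3. HT replicate 1 was thus the lowest of all 6 libraries, and replicate 3 of both genotypes the highest. For the 200 genes lower at E18.5, the median was 7.15 in HT replicate 1 and 7.09 and 6.73 in HT replicates 2 and 3. In KO replicates 1 to 3 it was 7.08, 7.11 and 6.63. The E16.5 KO libraries took part in choosing both sets, so their levels here are not independent of that choice.

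**Figure D4:**
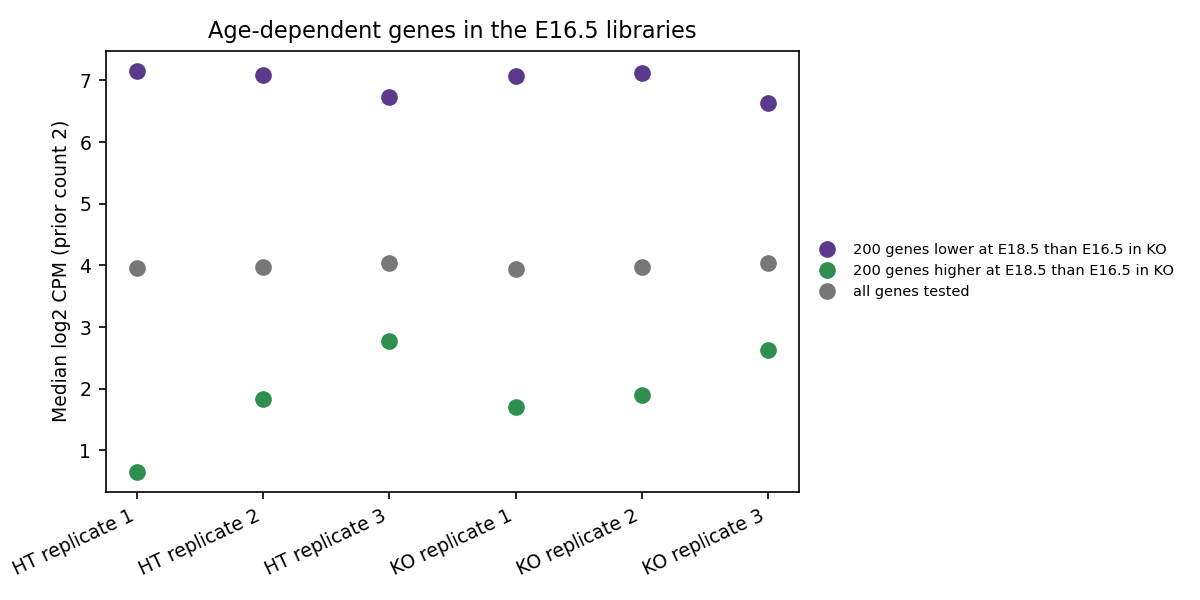
Median log2 CPM (prior count 2) of genes that differ between E16.5 and E18.5 in KO, and of all tested genes, in each E16.5 library. The 200 genes higher at E18.5 lie at 0.66 in HT replicate 1 and at 1.70 to 2.77 in the other 5 libraries, while all tested genes lie at 3.94 to 4.04.

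The medians of several gene lists moved when that library was left out. The fetal germ cell and pluripotency list (26 tested genes) had 24 log2 fold changes below 0, a median of -0.73 against -0.01 for all genes, and none called. HT replicate 1 was the highest library in 22 of the 26, and without it the median was -0.10 with 19 below 0. Dppa3, a marker of early germ cells, gave 3133, 1028 and 277 CPM in HT and 906, 817 and 127 CPM in KO. The proliferation and cell cycle list had all 33 genes below 0 (median -0.45), HT replicate 1 was the highest library in 30 of 33, and the median without it was -0.08. Mki67, the proliferation antigen, gave 464, 133 and 75.7 CPM in HT and 82.0, 67.0 and 71.7 CPM in KO.

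Smaller shifts of the same kind were found in the lists of Nodal and TGF-beta signalling (18 genes, median -0.27, and -0.08 without HT replicate 1), cytosolic ribosomal proteins (34 genes, -0.21 and 0.01), the respiratory chain (29 genes, -0.19 and -0.02) and H3K9 methylation and KRAB repression (21 genes, -0.15 and 0.07). The list of interferon-stimulated genes had 15 of 26 genes below 0 (median -0.17, and -0.09 without HT replicate 1), with 4 free of overlap and lower in KO and 1 higher, beside 3.06% and 3.29% of all genes. These counts were again 4 and 1 without HT replicate 1, beside 5.92% and 5.65%. The methylation-sensitive germline genes, whose promoters carry methylation in somatic cells, had a median of 0.08, and 0.07 without HT replicate 1. No member of any list was called higher or lower by edgeR.

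The piRNA pathway list had a median of 0.09 with and without HT replicate 1 (26 genes, 18 above 0, then 20). Other left-out libraries moved it, to 0.20 without HT replicate 3, 0.15 without KO replicate 3 and 0.19 without both HT replicate 1 and KO replicate 3. In 4 of its members all KO libraries exceeded all HT libraries and in none was it the reverse, beside 3.29% of all genes. Morc1, a repressor of transposons in fetal germ cells, gave 628, 713 and 694 CPM in HT and 880, 828 and 781 CPM in KO (log2 fold change 0.29 ± 0.12, SE). Piwil4, the nuclear PIWI protein, gave 309, 611 and 597 CPM in HT and 737, 694 and 642 CPM in KO, and its log2 fold change of 0.45 was 0.21 without HT replicate 1. Mael and Tdrd7 were the other 2, at 0.22 and 0.17. The DNA methylation machinery (15 genes) had a median of -0.04, which turned to 0.04 without HT replicate 1, and Dnmt3l, the cofactor of de novo methylation, gave 78.3, 243 and 295 CPM in HT and 272, 270 and 307 CPM in KO.

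Markers of other testis cells moved with the same library, and also with others. The Sertoli list summed to 27.0, 73.3 and 112 CPM in HT and 62.9, 70.4 and 121 CPM in KO, against 5403 to 8812 CPM for 10 germ cell markers. Its median log2 fold change over 13 tested of 16 genes was 0.23, and -0.12 over the same genes without HT replicate 1. On the same footing, the stromal list had a median of 0.37 and then -0.09 (14 genes), the endothelial list 0.43 and then 0.04 (9 genes), and the macrophage and blood list 0.55 and then 0.09 (7 of 19 genes, with 3 at 0 in all 6 libraries). Other left-out libraries moved these medians as well. Without HT replicate 3 they were 0.74 (Sertoli), 0.97 (stromal), 0.84 (endothelial) and 0.80 (macrophage and blood). Without KO replicate 3 they were -0.34, -0.08, 0.04 and 0.22 in that order. Without both HT replicate 1 and KO replicate 3 they were -0.58, -0.31, -0.35 and -0.05. The macrophage and blood list summed to 29.5 to 53.3 CPM in HT and 48.7 to 87.0 CPM in KO, highest in KO replicate 3. The stromal sum went against that list's median of 0.37, at 1417, 619 and 496 CPM in HT and 584, 532 and 433 CPM in KO, and most of it in HT replicate 1 was Fn1 (1378 CPM). Most of the Leydig sum was Ptch1 (527, 265 and 134 CPM in HT and 235, 239 and 110 CPM in KO), so this sum (594, 352 and 233 CPM in HT) went against the list's median difference of HT replicate 1 from the other HT libraries, which was -0.61 on the log2 scale. The part of these cells in the gene differences was not tested, and fewer cells of a type and less RNA per cell cannot be told apart in such bulk samples.

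The E18.5 libraries, from other embryos, offer values that the E16.5 libraries had no part in choosing. At E18.5, 377 of 18199 genes were called higher in KO (2.07%) and 12 lower (0.0659%), of which 1 was Tex15. Of the 377, 87 (23.1%) had all KO libraries above all HT libraries at E16.5 and none had the reverse, beside 3.23% and 2.47% of all 24495 gene rows. Without HT replicate 1 these were 96 (25.5%) above and 4 (1.06%) below, beside 5.14% and 5.77%. Without both HT replicate 1 and KO replicate 3 they were 108 (28.6%) above and 50 (13.3%) below, beside 13.5% and 16.9%. At a mean of at least 1 CPM, 68 of 271 (25.1%) were above and none below, beside 3.24% and 3.05% of 15883 genes, and without HT replicate 1 these were 77 (28.4%) and 2 (0.738%), beside 5.63% and 5.84%. The median log2 fold change at E16.5 of the 276 that were fitted was 0.75, and without HT replicate 1 it was 0.43 over 308, with the median of all genes within 0.02 of 0 in both fits. These medians only describe the fitted genes, since a gene can pass the filter on low counts through the KO libraries alone. Of the other 11 genes lower at E18.5, none separated the groups at E16.5.

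**Figure D5:**
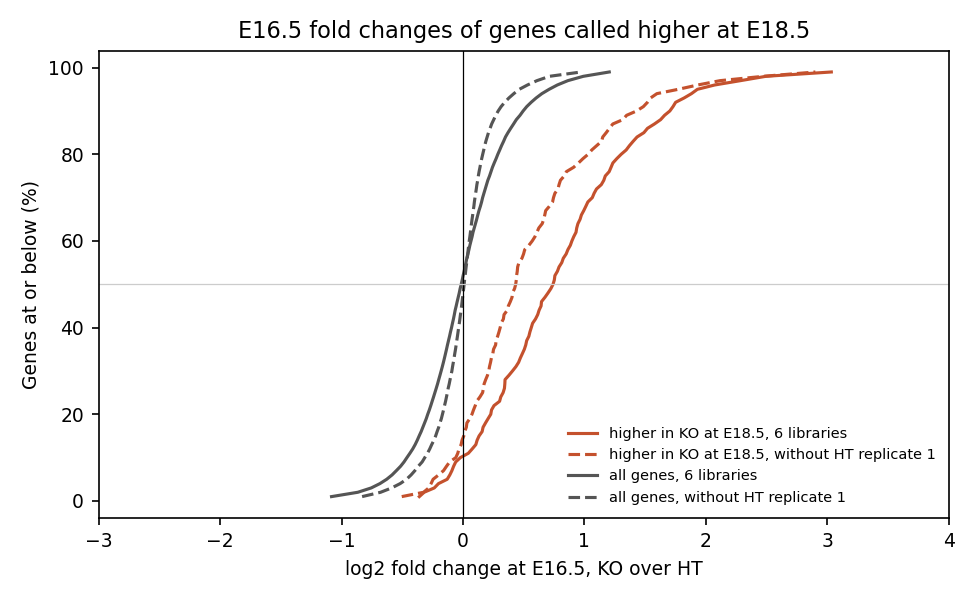
Share of genes at or below each E16.5 log2 fold change (KO over HT), for genes called higher in KO at E18.5 with a mean of at least 1 CPM at E16.5 (orange) and for all genes at that level (grey), with all 6 libraries (solid) and without HT replicate 1 (dashed). The orange medians are 0.74 and 0.43, and the grey ones -0.01 and 0.01.

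Among the 20 genes of smallest p that were higher at E16.5, Tex15 aside, 14 were called higher at E18.5, beside 2.07% of all genes tested there. None of the 20 lower ones was called lower at E18.5, where only 0.0659% of all genes were. The set of 87 holds Slc40a1, Cyp4a12b, Gpr179, Pitpnc1, Prss12 and Casp1 from above. It also holds Olfr293, an olfactory receptor gene at 0.29, 0 and 0 CPM in HT and 1.73, 1.46 and 3.37 CPM in KO, and Trim14, a regulator of innate immunity at 0.96, 2.22 and 3.26 CPM in HT and 5.96, 5.77 and 12.1 CPM in KO. Gucy1a3, Gabra4 and Smarca1 were not called at E18.5, where their log2 fold changes were 0.63, 0.31 and 0.40. Of 111 repeat names called higher at E18.5 (9.87%), 107 had a mean of at least 1 CPM at E16.5, and 29 of these (27.1%) were free of overlap, beside 11.3% of all names at that level, and none had the reverse, beside 1.2%. Without HT replicate 1 it was 31 (29.0%) beside 23.8%. Their median log2 fold change at E16.5 was 0.40, and 0.28 without HT replicate 1.

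Tested directly in 1 fit of the 12 libraries of both ages, the KO effect differed between E16.5 and E18.5 in 2 of 52 families (3.85%) and in 3 of 1133 repeat names (0.265%), L1Md_A, MMETn-int and MMERGLN-int. It differed in none of 18554 genes (0%), with 382 at an unadjusted p under 0.05. ERVK had log2 fold changes of 1.15 at E16.5 and 1.59 at E18.5 in the fits of each age, and the joint fit gave a difference of 0.40 that edgeR did not call. L1Md_A had log2 fold changes of 0.29 and 1.65, a difference of 1.32 in the joint fit (adjusted p = 0.00526 in edgeR).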

How the data were processed

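The deposited values are whole-number counts. Per the labels' descriptions, the authors deposited 1 table of read counts for genes and repeat names at each age. They also deposited 1 table of alignment counts for 53 repeat families at each age. The submitters' processing notes name STAR, Bowtie, featureCounts, edgeR and mm9, with no roles or versions. Every column was mapped by its name to 1 sample. Members, gene lists and repeat groups were chosen with earlier results of these data known.

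Genes were filtered with filterByExpr (minimum count 10, minimum total 15) and tested with edgeR 4.0.16 in R 4.3.3 (TMM, quasi-likelihood, two-sided, Benjamini-Hochberg threshold 0.05), HT against KO, 6 libraries. An SE is the log2 fold change divided by the square root of F. Repeat names and families with at least 10 counts in at least 3 libraries were tested with the gene library sizes and factors. A count of 0 allows up to 3 counts, which covers counting error only. DESeq2 1.42.0, limma 3.58.1, other scalings, filters and left-out libraries were alternatives, of which the fit without both HT replicate 1 and KO replicate 3 was added after seeing the data.

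Named genes were, per direction, the 12 of smallest p whose groups did not overlap and whose average log2 CPM reached 1, the first 8 without HT replicate 1, the 8 farthest in HT replicate 1, and up to 3 per list. Clone-named models were counted only, and 1 of the 12 higher genes is not reported here. Tested on simulated data (16185 genes) with the E16.5 trend of spread on abundance, edgeR recovered 24% of 2-fold and 70% of 4-fold changes. It also made 6 false calls. Each gene was drawn independently, without scatter around that trend and without a library displaced like HT replicate 1. Recovery in the real libraries may therefore be lower. Figures used matplotlib 3.10.9.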

Additional observations from a re-analysis of the deposited data

Results flagged for a closer look

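The KO effect differed between the 2 ages for 2 repeat families in the fit of 12 libraries. In the fits of each age, the log2 fold change of L1 was 0.46 at E16.5 and 1.87 at E18.5, and the difference of 1.37 in the joint fit passed edgeR's test (adjusted p = 0.00041, and 1.37 without E16.5 HT replicate 1). For ERV1, the values were 0.82 and 1.77, with a difference of 0.91 (edgeR adjusted p = 0.000237, and 1.09 without E16.5 HT replicate 1). Scaled by family totals, the ERV1 difference was -0.35. The L1 difference ran from 0.10 to 1.39 over the alternatives, which include that scaling. Groups of 3 libraries are too small for a test of single outlying values.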

How the results depend on the processing

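Tex15 was called under every alternative run. The count of genes called was 1 in edgeR, 6 in DESeq2 and 10 with library weights. The count of repeat names called was 0, but 2 in DESeq2, 2 with library weights, 2 with repeat totals as library sizes, 4 in the fit of 12 libraries and 3 without both HT replicate 1 and KO replicate 3, a fit added after seeing the data. Leaving out 1 library each gave 1 gene, 0 to 2 names and 2 to 6 families (2 without KO replicate 2), and a repeat share difference of 0.924 to 4.01 percentage points. With family totals as library sizes, 1 family was called, and L1 (-0.0346), L2 (-0.32), ERVL (-0.22), MaLR (-0.30) and B4 (-0.40) turned negative. For the difference between ages, that scaling gave 51 families called, and turned ERV1 (-0.35), ERVK (-0.87), NA (-0.80) and ERVL (-1.28) negative. Alu was positive with library weights (0.00465) and without both libraries (0.0847), and ranged from -0.201 to 0.0467 with 1 library left out. B2 was likewise positive (0.0225 and 0.0447) and ranged from -0.138 to 0.0461. For both, the positive end was the fit without HT replicate 1. B4 ranged from -0.0283 to 0.101 and was negative in 3 of those 6 fits. Where no value above shows it, the cause was not tested.

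Replicate numbers are shared between genotypes. Same-numbered libraries deviated from their group means with correlations of 0.58, -0.12 and 0.76. The numbers are not stated to mark litters, so the main fit did not take them as pairs. Whether they are pairs was not tested. With the replicate number as a block, 2 genes (Slc40a1 and Tex15), 39 names and 7 families were called, and 5 families for the difference between ages. The 39 names held 3 of the 6 young L1 names and 17 of the 24 older rodent L1 names.

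Depth limits values under 0.258 to 0.297 CPM, the 3 counts that a 0 allows.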
